A study of Mus musculus with 24 samples.

Results

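mmu-miR-142a-3p, mmu-miR-142a-5p and mmu-miR-223-3p, where mmu stands for mouse and is left out from here on, are the main mature products of the genes Mir142 and Mir223, and they make up 3 of the 1009 miRNAs listed in a survey of small RNA from the mouse mammary gland. They were chosen by name, miR-142 as a mark of leukocytes in general and miR-223 as a mark of myeloid cells. All 3 were measured in every library.

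miR-142 is made in nearly all cells of the blood lineage and in few other cells, and it is required for the normal development and function of several leukocyte types. miR-223 is a miRNA of the myeloid lineage, high in neutrophils and macrophages, where it restrains the growth and activation of granulocytes. The mammary gland holds resident macrophages and lymphocytes throughout its cycle, and neutrophils and macrophages enter it when it regresses after weaning.

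Mammary glands of the abdominal and inguinal pairs were taken from 24 C57BL/6 female mice, an inbred strain, at 4 stages with 6 mice each. They were adults aged 10 weeks (W10), pregnant mice on gestation day 18 (P18), nursing mice on lactation day 7 (Lac7) and mice on involution day 3 (Inv3), when the gland regresses. Each mouse gave 1 library from a homogenate of the whole gland, so that epithelium, fat, stroma, vessels and leukocytes were measured together, and at W10 the mice are numbered 1 to 5 and 7. The age of the mice at the later stages and whether the lymph node of the inguinal gland was removed are not given in the sources used here. In the series' design text the days of lactation and involution are exchanged (3 and 7), and those of the sample labels and the study's methods are used here.

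Values are reads per 1000000 reads on listed miRNAs (RPM), so every library has the same total and each level is relative to the other miRNAs. The libraries held 660346 to 1165321 reads, which gave at least 286 reads of miR-142a-3p, 1868 of miR-142a-5p and 470 of miR-223-3p in a library. Lac7 libraries were the shallowest, with 660346 to 751890 reads. The epithelial miRNAs of the labelled tissue were found in all libraries, with a sum over 11 of them from 21719 to 26495 RPM at W10 and from 128256 to 148244 RPM at Lac7. In such bulk samples, fewer cells of a type and less RNA per cell cannot be told apart.

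The mature sequences are shown because miR-142a-3p overlaps a product listed for the opposite strand, miR-142b, which also resembles miR-142a-5p. This bears on how their reads are read below. The sequences are taken from RefSeq (GRCm38.p6) and run 5′ to 3′ with the seed, bases 2 to 8, in capitals.
miR-142a-3p: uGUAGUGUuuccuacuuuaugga
miR-142a-5p: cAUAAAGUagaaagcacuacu
miR-223-3p: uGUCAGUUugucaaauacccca
miR-142b: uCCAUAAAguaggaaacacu
miR-223-5p: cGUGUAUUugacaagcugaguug

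The seed is the stretch through which a miRNA chiefly recognises its targets. No other mature mouse miRNA in the RefSeq table had any of these seeds, so that each of the sequences forms a seed group of its own. miR-142a-5p lies at chr11:87756867-87756887 and miR-142a-3p at chr11:87756903-87756925, both on the plus strand, within a hairpin of 64 bases that is in an intron of the noncoding gene Mir142hg in the GENCODE annotation. miR-142b, at chr11:87756906-87756925 on the minus strand, is the exact reverse complement of bases 4 to 23 of miR-142a-3p. miR-223-3p lies at chrX:96242884-96242905 on the plus strand, in a hairpin of 110 bases that overlaps an exon of the noncoding gene F630028O10Rik.

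miR-142a-3p was highest at W10, fell at P18 and again at Lac7, and rose at Inv3 to a level between W10 and Lac7. At W10 the lowest, median and highest mouse had 2914, 5173 and 6155 RPM, and at P18 they had 882, 1985 and 2471 RPM. At Lac7 these values were 429, 495 and 1596 RPM, and at Inv3 they were 1558, 2143 and 3389 RPM. The means were 4756 ± 1338, 1811 ± 549, 797 ± 521 and 2325 ± 633 RPM (SD, n = 6 each) in the order of the stages. All mice at P18 and at Lac7 were below all mice at W10, while 2 of the 6 Lac7 mice reached the range of P18.

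miR-142a-5p was the more abundant product of the same hairpin and followed the same course. It had 20657, 36032 and 39125 RPM in the lowest, median and highest mouse at W10 and 4771, 15760 and 19412 RPM at P18. At Lac7 it had 2804, 3403 and 9787 RPM, and at Inv3 9684, 12855 and 18591 RPM. By its mean level of 31988 ± 8557 RPM (SD, n = 6) it ranked 10 of the 1009 miRNAs at W10, and it ranked 15, 27 and 15 at P18, Lac7 and Inv3. The Inv3 mice lay below every W10 mouse, as for 12.1% of the tested miRNAs, and within the range of P18.

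miR-223-3p moved over a narrower range and with less spread between mice. It had 1151, 2021 and 2391 RPM in the lowest, median and highest mouse at W10 and 977, 1246 and 1303 RPM at P18. At Lac7 it had 706, 807 and 897 RPM, and at Inv3 1598, 1760 and 2227 RPM. The Lac7 mice did not overlap with those of any other stage, and the Inv3 mice lay within the range of W10. The SD was 84.2 RPM around a mean of 801 RPM at Lac7, against 521 RPM around 797 RPM for miR-142a-3p in the same libraries.

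**Figure D1:**
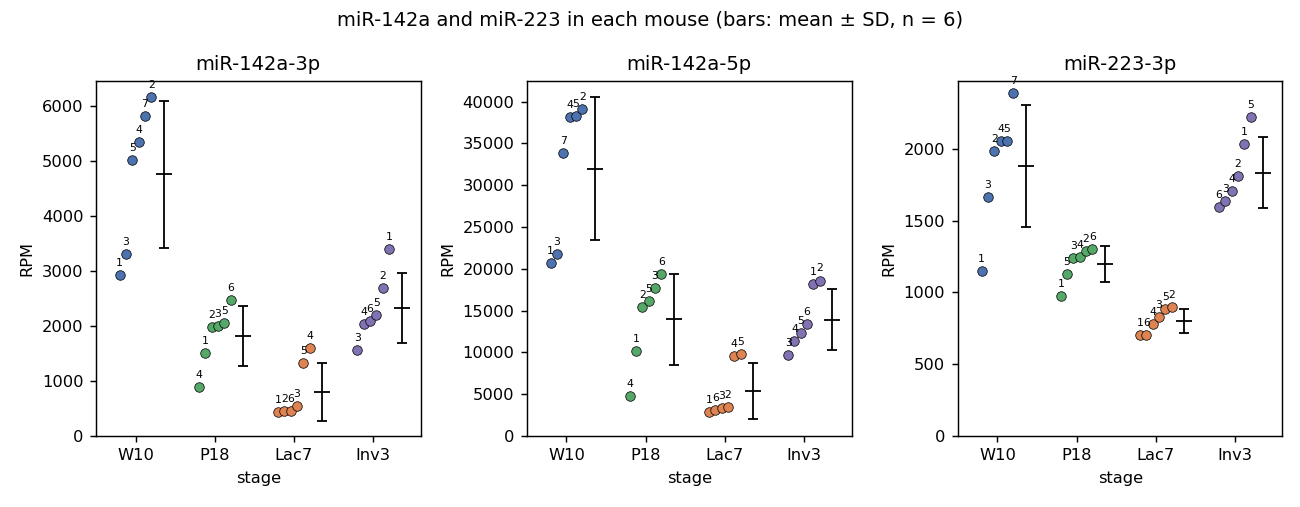
Levels of miR-142a-3p, miR-142a-5p and miR-223-3p in RPM (vertical axes, from 0) at the 4 stages, with 1 point per mouse labelled by its number and the mean ± SD of 6 mice beside the points. Lac7 mice 4 and 5 stand above the other Lac7 mice for both products of miR-142a, at 1596 and 1321 RPM for miR-142a-3p, and lie among them for miR-223-3p.

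From W10 to P18, which compares the adult gland with the gland late in pregnancy, all 3 miRNAs fell. In limma over 544 miRNAs, 29.4% of those tested were lower at P18 with an adjusted p under 0.05, and over all of them the median log2 fold change was -0.32. miR-142a-3p fell by 1.41 ± 0.30 on the log2 scale (SE, adjusted p = 0.000328) and miR-142a-5p by 1.29 ± 0.32 (adjusted p = 0.00167). miR-223-3p fell by 0.62 ± 0.14 (adjusted p = 0.000524), with the lowest W10 mouse inside the range of P18, and with edgeR the difference was -0.34 at an adjusted p of 0.050. No overlap of the mice was seen for 2 of the 3, against 16.9% of the tested miRNAs without overlap in this direction.

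From P18 to Lac7, which addresses the onset of milk secretion, all 3 fell again, where 31.4% of the tested miRNAs were lower and the median of all was -0.34. miR-142a-3p fell by 1.34 ± 0.30 (adjusted p = 0.000531, limma) and miR-142a-5p by 1.46 ± 0.32 (adjusted p = 0.000482). miR-223-3p fell by 0.58 ± 0.14 (adjusted p = 0.00109), and it alone of the 3 showed no overlap of the mice, as did 19.1% of the tested miRNAs in this direction. When the libraries were scaled by DESeq2 size factors, the fall of miR-223-3p was -0.28 and no longer passed the test (adjusted p = 0.118, limma).

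From Lac7 to Inv3, which follows the gland into regression, all 3 rose, where 27.9% of the tested miRNAs were higher and the median of all was 0.28. miR-142a-3p was higher by 1.73 ± 0.30 on the log2 scale (adjusted p = 2.9e-05, limma), with means 2.92-fold apart. miR-142a-5p was higher by 1.55 ± 0.32 (adjusted p = 0.000235), and miR-223-3p by 1.19 ± 0.14 (adjusted p = 7.97e-08). Only for miR-223-3p did no Inv3 mouse overlap with a Lac7 mouse, as for 13.6% of the tested miRNAs in this direction, while Lac7 mouse 4 for miR-142a-3p and Lac7 mouse 5 for miR-142a-5p lay just above the lowest Inv3 mouse.

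Over the whole span from W10 to Lac7, the means of miR-142a-3p and miR-142a-5p were each 5.97-fold lower, and that of miR-223-3p was 2.35-fold lower. All 3 fell, where 48.5% of the tested miRNAs were lower, with log2 fold changes of -2.75, -2.75 and -1.20 in that order (largest adjusted p = 2.66e-08, limma). The mice did not overlap for any of the 3, which also held for 29.4% of the tested miRNAs in this direction.

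The products parted when Inv3 was set against W10. There 2 of the 3 were lower, where 31.2% of the tested miRNAs were lower and the median of all was -0.41. miR-142a-3p was lower by 1.02 ± 0.30 on the log2 scale (adjusted p = 0.00758, limma) and miR-142a-5p by 1.19 ± 0.32 (adjusted p = 0.0041), whereas miR-223-3p differed by -0.01 ± 0.14 (adjusted p = 0.969), with a 95% interval from -0.30 to 0.27. This comparison depends on the scaling of the libraries. With DESeq2 size factors, which moved the median of all tested miRNAs from -0.41 to -0.10, miR-142a-3p differed by -0.64 (adjusted p = 0.118, limma) and miR-142a-5p by -0.81 (adjusted p = 0.060), while miR-223-3p was higher by 0.37 (adjusted p = 0.0499).

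Against P18, Inv3 showed 1 member higher, where 10.8% of the tested miRNAs were higher. This was miR-223-3p, by 0.61 ± 0.14 on the log2 scale (adjusted p = 0.00151, limma), with no Inv3 mouse in the range of P18, as for 4.23% of the tested miRNAs. The difference of miR-142a-3p was 0.39 (95% interval -0.23 to 1.002, adjusted p = 0.383) and that of miR-142a-5p 0.09 (-0.57 to 0.75, adjusted p = 0.876). By their mean RPM, miR-142a-3p and miR-223-3p were ordered W10, Inv3, P18 and Lac7, where Inv3 and P18 were not separated for the former. For the latter W10 and Inv3 were not separated in RPM, and with size factors Inv3 stood above W10, at 1941 ± 396 against 1511 ± 317 scaled reads (SD, n = 6). For miR-142a-5p, W10 was highest and Lac7 lowest, and the means of P18 and Inv3, at 13925 and 13908 RPM, were not separated and have no firm order.

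**Figure D2:**
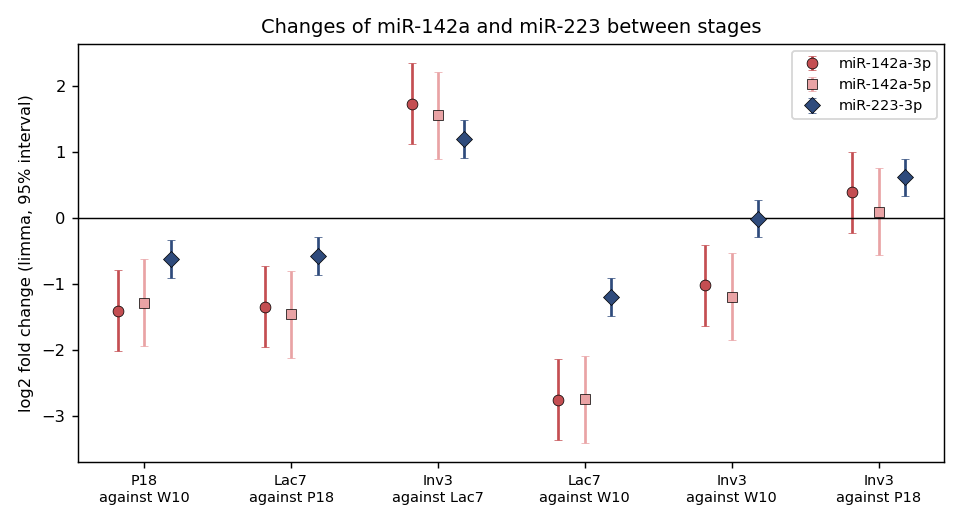
Log2 fold changes (vertical axis) of the 3 miRNAs in the 6 stage comparisons (horizontal axis), as points with the 95% interval of the limma fit over 24 libraries. The intervals of both miR-142a products lie below 0 for Inv3 against W10, and that of miR-223-3p, from -0.30 to 0.27, crosses it.

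The ratio of miR-142a-3p to miR-223-3p within a library does not depend on how the library is scaled, and it tests directly whether both changed by different amounts. In the lowest, median and highest mouse it was 1.99, 2.48 and 3.10 at W10 and 0.706, 1.57 and 1.90 at P18. It was 0.496, 0.643 and 2.04 at Lac7 and 0.949, 1.25 and 1.67 at Inv3. No P18 or Inv3 mouse reached the W10 range, while Lac7 mouse 4 did.

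Relative to W10, the ratio was lower at P18 by 0.78 on the log2 scale (two-sided exact permutation p = 0.00216, adjusted over 36 tests 0.00779). It was lower by 1.55 at Lac7 (exact p = 0.00433, adjusted 0.0104) and by 1.01 at Inv3 (exact p = 0.00216, adjusted 0.00779), where it stood at 0.497 of its W10 value. The p of 0.00216 is the smallest that 6 mice against 6 can give in this exact test. From P18 to Lac7 the difference was -0.77 (exact p = 0.0952, adjusted 0.132) and from Lac7 to Inv3 it was 0.54 (exact p = 0.173, adjusted 0.223), and between Inv3 and P18 it was -0.23 (exact p = 0.403, adjusted 0.426). These differences did not pass the test. The spread between mice was widest at Lac7, with an SD of 0.827 on the log2 scale, against 0.205, 0.523 and 0.319 at W10, P18 and Inv3.

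The ratio of miR-142a-5p to miR-223-3p gave the same picture relative to W10. It was lower than at W10 by 1.54 at Lac7 and by 1.18 at Inv3, with no overlap and an adjusted exact permutation p of 0.00779 in both. At P18 it was lower by 0.66 (exact permutation, adjusted p = 0.0476), a call that was lost when any of 7 of the 12 mice was left out. Without P18 mouse 4, it differed from P18 by -0.81 at Inv3 and by -1.17 at Lac7 (exact permutation, adjusted p = 0.00974 and 0.0445). Without both Lac7 mice 4 and 5, it was higher at Inv3 than at Lac7 by 0.87 (exact permutation, adjusted p = 0.0190). With all mice, none of these differences passed. Of the 36 tests of ratios, 18 passed.

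The products of the Mir142 hairpin kept a narrow ratio. That of miR-142a-5p to miR-142a-3p was 6.76 ± 0.927 over the 24 libraries (SD), from 5.35 to 8.92, and did not pass the exact permutation test in any of the 6 stage comparisons after adjustment. Without P18 mouse 4, miR-142a-3p was higher relative to miR-142a-5p at Inv3 than at P18, by 0.38 on the log2 scale (exact permutation, adjusted p = 0.0138), and without Inv3 mouse 2 by 0.34 (adjusted p = 0.0482). Without Inv3 mouse 2 it was also higher at Inv3 than at W10, by 0.21 (exact permutation, adjusted p = 0.0468), and with miR-142b added to miR-142a-3p it was higher at Inv3 than at Lac7, by 0.23 (adjusted p = 0.0410). Its stage means ran from 6.01 ± 0.613 at Inv3 to 7.43 ± 1.21 at P18 (SD, n = 6). For the Mir223 hairpin, the minor product miR-223-5p had 33.2 ± 11.1, 19.8 ± 4.85, 9.36 ± 4.31 and 47.2 ± 19.1 RPM (SD, n = 6) in the order of the stages. It fell from P18 to Lac7 by 1.07 (adjusted p = 0.00285, limma) and rose from Lac7 to Inv3 by 2.24 on the log2 scale (adjusted p = 3.09e-07). The fall did not pass with DESeq2 (-0.77, adjusted p = 0.0843), and the Lac7 values rest on 3 to 11 reads per library. Between P18 and W10 it differed by -0.68 (adjusted p = 0.0581, limma) and between Inv3 and W10 by 0.49 (adjusted p = 0.174). The difference of P18 passed with a pseudocount of 10, on the 12 libraries alone, with the mouse number as a block and without miR-142b. It also passed without W10 mouse 2, W10 mouse 7 or P18 mouse 4 (limma, adjusted p from 0.0252 to 0.0414 over all of these). In the other alternatives it did not pass.

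The listed miR-142b was far more abundant than the miR-142a-3p that it mirrors. It had 73574 ± 20600, 28313 ± 8456, 11729 ± 7437 and 35710 ± 9872 RPM (SD, n = 6) in the order of the stages and ranked 5 of the 1009 miRNAs at W10. In every library it was between 14.1 and 16.6 times the level of miR-142a-3p, with a mean ratio of 15.3 ± 0.679 (SD over 24 libraries). The ratio thus held within 1.18-fold while miR-142a-3p itself ranged from 429 to 6155 RPM.

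The spread of that ratio was close to counting error at some stages. The heterogeneity chi-square of its reads per degree of freedom was 0.948 at P18 and 0.912 at Lac7, where counting error alone gives about 1, and 2.36 at W10 and 7.62 at Inv3. For miR-142a-5p to miR-142a-3p the same measure over all 24 libraries was 38.1, against 2.98 for miR-142b to miR-142a-3p. miR-142b also reads like miR-142a-5p over 18 bases of the latter with 2 mismatches, A11G and G14A, in which the first letter is the base of miR-142a-5p and positions count from 1 at its 5′ end. Its ratio to miR-142a-5p was 2.31 ± 0.306, from 1.78 to 2.85.

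The library kit is named as stranded, and whether strand was used in counting is not given in the sources used here. Without strand, the reads of miR-142a-3p and of miR-142b cannot be told apart. With both summed as 1 miRNA, every one of the 6 comparisons kept the direction and the call of miR-142a-3p. Because the ratio of the 2 was nearly constant, the sum could hardly give another outcome, and it does not tell whether strand was used. The 3 products of the locus together took 6.92% to 14.3% of the reads on miRNAs at W10 and 0.93% to 3.37% at Lac7, and rescaling the libraries without miR-142b also changed no call of the 3 miRNAs.

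**Figure D3:**
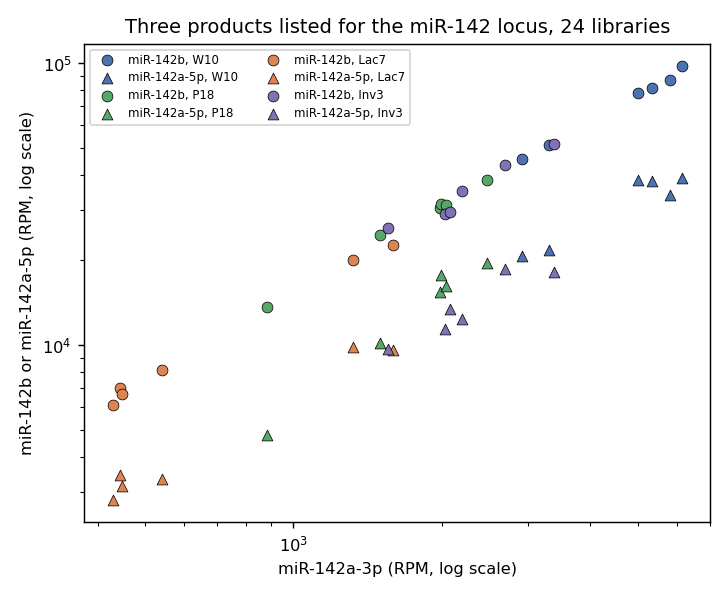
miR-142b (circles) and miR-142a-5p (triangles) against miR-142a-3p, all in RPM on log axes, with 1 point per library coloured by stage. The circles keep to a single line, at 14.1 to 16.6 times miR-142a-3p over the 24 libraries, and the triangles scatter more widely, at 5.35 to 8.92 times.

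miR-150-5p, a miRNA of mature B and T cells, fell further than miR-142a or miR-223. It had 637, 1116 and 1414 RPM in the lowest, median and highest W10 mouse and 127, 317 and 392 RPM at P18. At Lac7 it had 13.4, 28.9 and 124 RPM, and at Inv3 147, 199.98 and 482 RPM. miR-150-5p, miR-155-5p, which rises when lymphocytes and macrophages are activated, and miR-342-3p fell in 3 of 3 cases in each step to Lac7 and rose in 3 of 3 at Inv3 against Lac7, where 29.4%, 31.4% and 27.9% of the tested miRNAs did so. The median log2 fold change of these 3 was -2.61 from W10 to Lac7, and that of all tested miRNAs was -0.66.

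Within libraries, both miR-142a-3p and miR-223-3p gained on miR-150-5p from W10 to Lac7. The ratio of miR-142a-3p to miR-150-5p was 4.48 ± 0.967, 6.42 ± 1.64, 18.9 ± 7.23 and 10.4 ± 2.67 (SD, n = 6) in the order of the stages. It passed in all 6 comparisons (exact permutation, adjusted p from 0.00779 to 0.0476), and the calls of P18 against W10 and of Inv3 against P18 were each lost when any of 9 of the 12 mice was left out. The ratio of miR-223-3p to miR-150-5p was 11.7-fold higher at Lac7 than at W10 and 4.59-fold higher at Inv3 than at W10 (exact permutation, adjusted p = 0.00779 in both, no overlap).

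**Figure D4:**
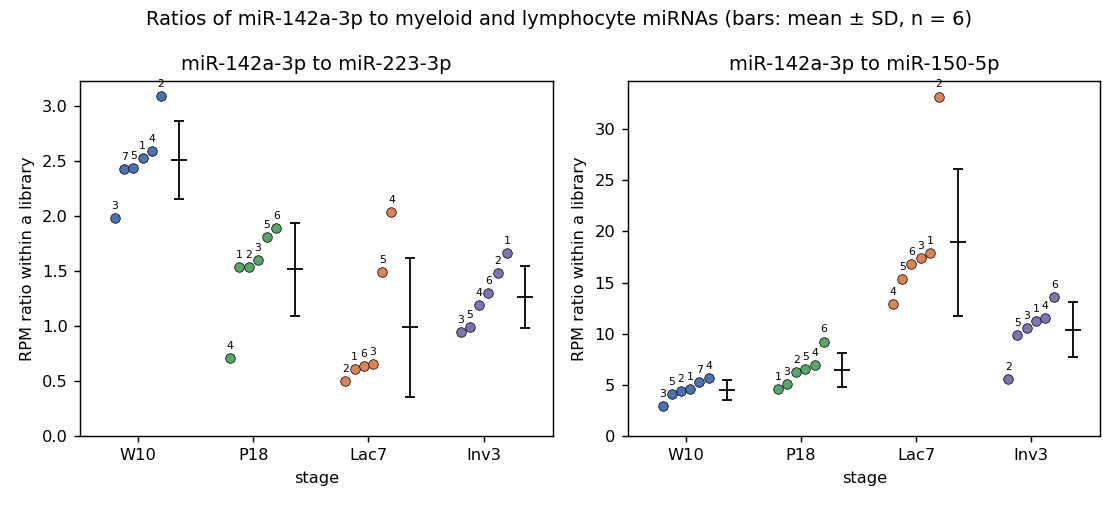
Ratio of miR-142a-3p to miR-223-3p (left) and to miR-150-5p (right) within each library (vertical axes, from 0) at the 4 stages, with 1 point per mouse labelled by its number and the mean ± SD of 6 mice. The left ratio is highest at W10, where the mice have 1.99 to 3.10, and the right ratio is highest at Lac7, where they have 12.9 to 33.2.

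The macrophage list held miR-511-3p and miR-511-5p, made from an intron of the mannose receptor gene of macrophages, with miR-146a-5p and miR-147-3p, which NF-kB signalling induces. From Lac7 to Inv3, 3 of its 4 members rose, where 27.9% of the tested miRNAs rose. For Inv3 against W10, none of the 4 passed in limma at an adjusted p under 0.05, where 31.2% of the 544 tested miRNAs were lower and 43 higher. With so few members, a count of none differs little from these shares. Of the 4, 1 had an unadjusted p under 0.05 (limma), miR-511-3p at -0.92 (adjusted p = 0.0802). miR-146a-5p, a brake on that signalling, was higher at Inv3 than at Lac7 by 2.19 ± 0.19 on the log2 scale (adjusted p = 9.2e-10, limma) and differed from W10 by 0.11 (adjusted p = 0.673). miR-511-3p was far scarcer, at 0 to 64.6 RPM over the libraries, and was higher at Inv3 than at Lac7 by 2.24 ± 0.42 (adjusted p = 7.16e-05). A count of 0 allows up to 2.57 to 4.54 RPM in these libraries, so the Lac7 values of miR-511-3p are near the limit. Those of miR-511-5p, which is among the 3 that rose, are below it, at 0 to 1.51 RPM, against 0.99 to 10.8 RPM at Inv3.

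miR-451a, which marks red blood cells and therefore blood left in the tissue, differed from the leukocyte miRNAs after P18. Its means were 998 ± 450, 475 ± 221, 615 ± 53.6 and 687 ± 184 RPM (SD, n = 6) in the order of the stages. It fell from W10 to P18 by 1.07 on the log2 scale (adjusted p = 0.00146, limma), as the leukocyte miRNAs did. From P18 to Lac7 it differed by 0.49 (adjusted p = 0.134, limma). It was higher there by 0.79 with size factors (adjusted p = 0.0109, limma) and by 0.70 with DESeq2 (adjusted p = 0.0216). Without P18 mouse 6 it was higher by 0.67 (adjusted p = 0.0358, limma). The ratio of miR-223-3p to miR-451a changed there by -1.07 on the log2 scale (exact permutation, adjusted p = 0.0104). From Lac7 to Inv3 miR-451a differed by 0.11 (adjusted p = 0.724, limma), and the ratio of miR-223-3p to miR-451a rose 2.11-fold with no overlap (exact permutation, adjusted p = 0.00779). Of the 4 listed red cell miRNAs, 1 was higher (miR-486a-5p, by 0.87) and 1 was lower (miR-144-3p, by -1.97) in that comparison, near the 27.9% and 18.9% of all tested miRNAs. These 2 and miR-144-5p are named after their values were seen. From W10 to P18, miR-486a-5p also fell, by 1.99, so that 2 of the 4 fell, where 29.4% of the tested miRNAs did. There miR-144-3p differed by 0.40 (adjusted p = 0.212, limma) and miR-144-5p by -0.53 (adjusted p = 0.0884). From P18 to Lac7, miR-144-3p rose by 1.56 (adjusted p = 1.1e-05, limma). It was the only 1 of the 4 that passed there, where 75 of the 544 tested miRNAs were higher.

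Among the other lists, the epithelial miRNAs moved the other way. From W10 to Lac7, 9 of 11 rose and 1 fell, where 18.2% of the tested miRNAs rose, with a median of 2.99 on the log2 scale, and from Lac7 to Inv3, 10 of 11 fell and 1 rose, where 18.9% of the tested miRNAs fell, with a median of -1.52. Of the 5 miRNAs of fibroblasts and smooth muscle, 5 rose from Lac7 to Inv3, where 27.9% of the tested miRNAs rose, with a median of 1.16. The 2 endothelial miRNAs had a median of -0.07 there and 1 fell, and 2 of the 3 skeletal muscle miRNAs fell. The summed epithelial level ranged from 29598 to 86794 RPM over the Inv3 mice alone. The part of such shifts in tissue make-up in the levels of miR-142 and miR-223 was not tested.

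Some mice lay at an end of their stage in miR-142 and in the sums of skeletal muscle and red cell miRNAs, and within it in miR-223. At Lac7, mice 4 and 5 had 1596 and 1321 RPM of miR-142a-3p, where the others had 429 to 541 RPM. The same mice had 124 and 86.3 RPM of miR-150-5p, where the others had 13.4 to 31.1 RPM, and 782 and 884 RPM of miR-223-3p, within the range of the others. These mice were the highest of their stage in 3 of the 3 lymphocyte miRNAs, whose sum ranged from 424 to 838 RPM. The mice were singled out by their values. The share of all tested miRNAs that set them apart was not counted, so the counts in the lists have no background. Their skeletal muscle miRNAs were lower than in all other Lac7 mice in 3 of 3 cases, with a sum of 104 and 115 RPM against 2193 to 4843 RPM. Of the 11 epithelial miRNAs, 4 were lower than in all others, among them miR-200c-3p at 7658 and 6836 RPM against 9057 to 10155 RPM, while the epithelial sum of 130112 and 131978 RPM lay within the range of the others.

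At P18, mouse 4 lay at the other end in miR-142 and in the skeletal muscle and red cell sums, with a smaller gap in the muscle sum. It had 882 RPM of miR-142a-3p against 1502 to 2471 RPM in the others, and 127 RPM of miR-150-5p against 268 to 392 RPM. Its miR-223-3p, at 1249 RPM, lay inside the range of the others. It was the lowest of its stage in 2 of the 3 lymphocyte miRNAs, with miR-342-3p at 1619 RPM inside the range of the others. Its skeletal muscle sum, at 2370 RPM, was the highest of its stage, where the others had 189.5 to 2067 RPM, and 2 of the 3 muscle miRNAs were above all others. Its red cell sum was the lowest, at 400 RPM against 440 to 1101 RPM. So was its sum of fibroblast and smooth muscle miRNAs, at 191012 RPM against 195976 to 214796 RPM. Here too, the share of all tested miRNAs that set the mouse apart was not counted. The part of lymphocytes, muscle, red cells and the other listed cell types in the levels of the mice of both stages was not tested. Without both Lac7 mice 4 and 5, which were chosen after their values were seen, all 18 calls of the 3 miRNAs were as before. Comparisons that hold no Lac7 mouse keep their fold changes in that fit. For both products of miR-142a these mice were the highest at Lac7, so leaving them out widens differences that had already passed. For these reasons the outcome says little about the calls of miR-142a.

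Across the 24 mice, after the mean of its stage was taken from each value, miR-142a-3p followed miR-150-5p (Pearson's r = 0.860, permutation p = 5e-05, adjusted over 11 relations 0.000183). Spearman's rho was 0.810 (permutation, adjusted p = 0.000367), and r was 0.784 without the 2 mice farthest from the median, Lac7 mouse 4 and P18 mouse 4. With miR-223-3p the relation was weaker, with r = 0.443 (permutation, adjusted p = 0.0363) and rho = 0.455 (adjusted p = 0.0657), and r was 0.601 without the same 2 mice. miR-223-3p and miR-150-5p had r = 0.222 (permutation, adjusted p = 0.257) and rho = 0.220 (adjusted p = 0.382). The difference between these correlations was not tested.

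Both leukocyte miRNAs ran against miR-200c-3p, with r = -0.661 for miR-142a-3p and -0.676 for miR-223-3p (permutation, adjusted p = 0.00011 and 0.00127). The rho values were -0.785 and -0.659 (permutation, adjusted p = 5.5e-05 and 0.00316), and r was -0.705 and -0.622 without the 2 mice farthest from the median. Libraries share a fixed total, which links abundant miRNAs with all others, and with size factors in its place these r were -0.679 and -0.721. miR-142a-5p followed miR-142a-3p with r = 0.961 and rho = 0.943, and r was 0.960 without 2 mice (permutation, adjusted p = 0.00011 for r and 5.5e-05 for rho). miR-142a-5p and miR-223-3p had r = 0.383 (permutation, adjusted p = 0.0614) and rho = 0.418 (adjusted p = 0.0737). With size factors this r was 0.417 and passed (permutation, adjusted p = 0.0281).

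The relations with miR-342-3p and miR-451a did not pass. miR-342-3p gave r = 0.371 with miR-142a-3p and 0.047 with miR-223-3p (permutation, adjusted p = 0.0884 and 0.818). miR-451a gave 0.294 and 0.116 (permutation, adjusted p = 0.153 and 0.761). The rho values of these 4 ran from 0.063 to 0.339 (smallest adjusted permutation p = 0.169), and r without 2 mice ran from 0.093 to 0.297.

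**Figure D5:**
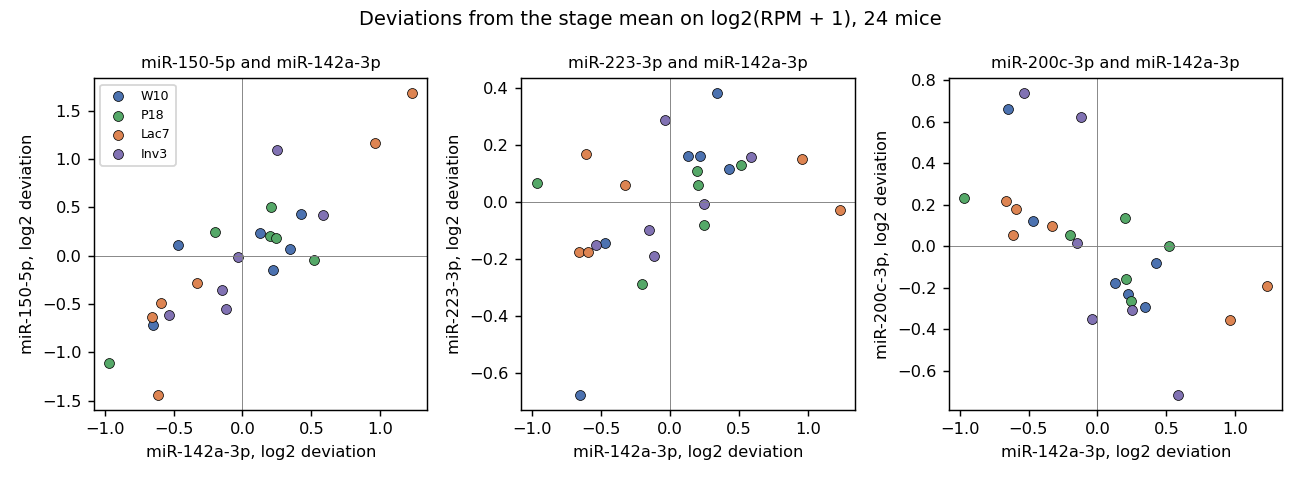
Deviations of each mouse from the mean of its stage on log2(RPM + 1), with miR-142a-3p on the horizontal axes and miR-150-5p, miR-223-3p or miR-200c-3p on the vertical axes, 1 point per mouse coloured by stage. The points rise together for miR-150-5p (r = 0.860), less tightly for miR-223-3p (r = 0.443), and run downward for miR-200c-3p (r = -0.661).

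Over the 24 libraries, among the 188 miRNAs that reached a stage mean of 100 RPM, those most like miR-142a-3p were miR-142b (Pearson's r = 0.999), miR-3964 (0.967) and miR-155-5p (0.956). For miR-142a-5p they were miR-142b (0.987), miR-3964 (0.959) and miR-150-5p (0.951). For miR-223-3p they were miR-350-3p (0.924), miR-23a-3p (0.893) and miR-21a-5p (0.882). These r are a description on log2(RPM + 1) over libraries that share their totals and their stages.

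miR-3964 resembles miR-142a-5p in sequence, which is why it is shown. It is listed at chr15:29713337-29713356 on the minus strand.
miR-3964: aUAAGGUAgaaagcacuaaa
It aligns with bases 2 to 21 of miR-142a-5p with 3 mismatches, A6G, C20A and U21A, counted from the 5′ end of miR-142a-5p with the base of miR-142a-5p first. Its level was 1.32 ± 0.307% (SD, n = 6) of that of miR-142a-5p at W10, and the means of the later stages, in order, were 0.799%, 0.511% and 1.08%. Whether reads of miR-142a-5p were assigned to it was not tested.

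The miRNAs most like miR-223-3p had larger changes than miR-223-3p itself at some stages. miR-350-3p had 253 ± 117, 62.9 ± 20.6, 26.0 ± 6.20 and 139 ± 28.6 RPM (SD, n = 6) in the order of the stages. miR-23a-3p had 15641 ± 2012, 8814 ± 933, 4025 ± 333 and 12043 ± 2870 RPM. miR-21a-5p, which is abundant in activated and dividing cells of many types, had 32862 ± 4546, 13197 ± 1738, 10648 ± 1361 and 31169 ± 9209 RPM.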

How the data were processed

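Small RNA was extracted with a mirVana kit, and a QIAseq miRNA kit was used for the libraries. Per the labels and the study's methods, reads were trimmed (Trimmomatic 0.36 is named in the submitters' processing notes) and assigned with QuickMIRSeq to miRBase 22, and the build named is GRCm38. The authors deposited RPM values scaled by the reads on listed miRNAs, with no filter stated. Whether molecular identifiers were counted is not given in the sources used here, so limits from 3 reads cover counting error only. The sequencer is named differently in the methods and the legends.

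In each library the values are multiples of 1 step, from which whole reads were recovered for 100% of them (tolerance 0.1 read). These reads went into edgeR 4.0.16 and DESeq2 1.42.0 as alternatives.

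The main test was limma 3.58.1 (lmFit, eBayes with a trend, R 4.3.3), two-sided, on log2(RPM + 1), in 1 fit over 24 libraries and the 544 miRNAs whose mean reached 1 RPM at any stage. Fold changes are on that scale, which understates those of scarce miRNAs. Benjamini-Hochberg adjustment ran over all 544, and a call means an adjusted p under 0.05. All 3 members passed the filter. Ratios within libraries were tested by two-sided exact permutation over all splits of 6 mice against 6, adjusted over 36. Correlations used 100000 permutations within stages, adjusted over 11. Ratios, permutations and plots were made in Python 3.11.15 with scipy 1.17.1, numpy 2.4.6, matplotlib 3.10.9 and pandas 2.3.3.

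The members and the lists of cell type miRNAs were chosen with earlier results of these data known. Named are the members, miR-142b, miR-223-5p, up to 3 first-listed miRNAs of a list, and the 3 most like each member. Separate mice are taken as replicates. Mouse numbers do not pair libraries. After the stage means were subtracted, 33 pairs with the same number had a mean r of -0.045 over 188 miRNAs, against 0.004 in the other 183 pairs. RefSeq gave a mature sequence for 854 of the 1009 names.

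Results were recomputed with a pseudocount of 0.1 or 10, without the filter, with the minimum at 100 RPM, on the 12 libraries compared alone, with the mouse number as a block, with size factors, with edgeR, with DESeq2 and with each mouse left out. After seeing the data, fits were added without both Lac7 mice 4 and 5, without miR-142b, and with miR-142b added to miR-142a-3p. Cultured cells of the study are not analysed here.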

Additional observations from a re-analysis of the deposited data

Results flagged for a closer look

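Among 32 groups of 6 mice examined, 2 held a mouse whose gap to its nearest neighbour was over 0.625 of the range of its group (Dixon's test), where chance gives about 1 in 20 groups. miR-223-5p in Inv3 mouse 5 was at 83.8 RPM, with a gap of 0.637 of the range. The ratio of miR-142a-3p to miR-223-3p in P18 mouse 4 was 0.706, with a gap of 0.698 of the range. Without P18 mouse 4, that ratio was lower at Inv3 than at P18 by 0.43 on the log2 scale (exact permutation, adjusted p = 0.0445), a difference that did not pass with all mice.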

How the results depend on the processing

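Of 18 fold changes of the 3 miRNAs, 205 of 216 alternative values kept direction and call, as did 208 of 216 with a mouse left out. Part of the former could not move, as the filters leave fold changes as they are and adding miR-142b alters only miR-142a-3p. The former count therefore overstates how stable the values are. Apart from miR-223-3p with the block, every change among the former came with size factors, edgeR or DESeq2. For miR-223-3p, P18 against W10 was -0.34 with edgeR (adjusted p = 0.050), and Lac7 against P18 was -0.28 with size factors and -0.27 with DESeq2 (adjusted p = 0.118 and 0.126). For Inv3 against W10, miR-142a-3p gave -0.64 with size factors, -0.62 with edgeR and -0.64 with DESeq2 (adjusted p = 0.118, 0.111 and 0.113), and miR-142a-5p gave -0.81 with size factors. There miR-223-3p gave 0.37 with size factors, 0.39 with edgeR and 0.36 with DESeq2 (adjusted p = 0.0499, 0.0356 and 0.0447), and -0.15 to 0.065 with a mouse left out. For Inv3 against P18, miR-142a-5p ran from -0.19 to 0.22 with a mouse left out, below 0 only without P18 mouse 4. miR-451a for Inv3 against Lac7 turned to -0.061 with size factors and -0.018 with DESeq2. The causes were not tested. Size factors moved the median of all tested miRNAs from -0.32 to -0.12 for P18 against W10, from -0.34 to -0.14 for Lac7 against P18, from 0.28 to 0.18 for Inv3 against Lac7 and from -0.66 to -0.31 for Lac7 against W10.

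The ratio of miR-142a-3p to miR-223-3p passed for Lac7 against P18 without Lac7 mouse 4 (range -1.02 to -0.61 over mice left out) and, without both Lac7 mice 4 and 5, gave -1.28 there and 1.06 for Inv3 against Lac7 (adjusted p = 0.0107). For Inv3 against P18 it ran from -0.43 to -0.15 with a mouse left out. The ratio of miR-142a-3p to miR-142a-5p for Lac7 against W10 was 0.0092 with a pseudocount of 10, 0.044 with the block, and -0.043 to 0.036 with a mouse left out, and that of miR-223-3p to miR-451a for Inv3 against P18 ran from -0.14 to 0.15.

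With the mouse number as a block, miR-223-3p for Inv3 against W10 was 0.081 (adjusted p = 0.672) and no other direction or call of the 3 miRNAs changed. In the blocked ratio tests, 0 of 36 passed, against 18 without it, an outcome that was fixed in advance. With so few pairs, no exact p is small enough to stay under 0.05 after adjustment over the 36. The 0 therefore says nothing about the 18 calls. The blocked tests of miR-142a-3p to miR-223-3p gave -0.87, -1.47 and -1.03 for P18, Lac7 and Inv3 against W10 (adjusted p = 0.118), with 5 pairs, which can give no exact p under 0.0625.

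Numbers of miRNAs past the test, higher and lower, were 66 and 160 for P18 against W10, with 103 and 111 in edgeR, 93 and 121 with size factors and 81 lower at the 100 RPM filter. For Lac7 against P18 they were 75 and 171, with 111 and 111 in DESeq2, 105 and 131 with size factors and 81 lower at the filter. For Inv3 against Lac7 they were 152 and 103, with 84 and 67 at the filter and 114 and 121 in DESeq2. For Lac7 against W10 they were 99 and 264, with 60 and 104 at the filter, 133 and 161 in DESeq2 and 131 and 206 with size factors. For Inv3 against W10 they were 43 and 170, with 71 and 91 with size factors, 88 and 85 in edgeR, 84 and 75 in DESeq2 and 93 lower at the filter. For Inv3 against P18 they were 59 and 96, with 38 and 63 at the filter and 69 and 70 in edgeR.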

Other observations

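Of the 1009 listed miRNAs, 18 pairs are products of opposite strands that overlap by at least 15 bases, and in 10 of these the scarcer one averaged 1 RPM or more. Over the libraries where both were found, the ratio within these 10 pairs varied least for miR-142b and miR-142a-3p, at 1.18-fold between the lowest and the highest library. Next was miR-3074-5p and miR-24-3p, with a ratio from 9.36 to 11.6, a range of 1.24-fold. The ratio of miR-126a-3p to miR-126b-5p varied from 90.0 to 168.5, and that of miR-3065-5p to miR-338-3p from 0.898 to 2.90. These pairs were named after their values were seen.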
